A study of Homo sapiens with 8 samples.

Results

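The binding of SMAD3 was examined at 9 genes that regulate or mark the epithelial-mesenchymal transition, in A549 cells before and after stimulation with TGFβ1. A probe was assigned to one of them when the gene name of the array's annotation, or its list of gene-to-distance entries, named that gene. The 9 genes were 9 of 17634 genes on the arrays and had 339 of 474411 probes. They were the transcription factors SNAI1, SNAI2 and TWIST1, the epithelial junction genes CDH1 and OCLN, and the mesenchymal or matrix genes CDH2, VIM, FN1 and CTGF (now named CCN2). A549 is an established human lung alveolar carcinoma line. The basal group was untreated, and the TGFβ1 group was stimulated at 2 ng/ml, for at most 2 h by the labels. Each group had 2 biological replicates, and the promoter probes were spread over 2 slides, so 8 arrays were read. On every array, DNA precipitated with an anti-SMAD3 antibody carried Cy5 and DNA from a mock precipitation carried Cy3. The source labels call the mock antibody anti-FLAG and the extraction protocol calls it control IgG. Dyes were not swapped, so a dye effect and SMAD3 enrichment cannot be told apart within a condition. A549 is a single line, and its identity could not be checked from precipitated genomic DNA.

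In the epithelial-mesenchymal transition, epithelial cells lose their junctions and gain motility and a matrix-producing phenotype. TGFβ1 binds serine/threonine kinase receptors that phosphorylate SMAD3, which enters the nucleus with SMAD4 and binds short DNA elements, among them CAGAC and GC-rich motifs. SNAI1, SNAI2 and TWIST1 are repressors or activators that act in this program, and the Snail proteins bind the E-box CACCTG in the CDH1 promoter. Promoter sequences of the RefSeq annotation were at hand for 5 of the 9 genes. Those of FN1 and CTGF are shown, as both genes had a measured probe less than 100 bases before the start and only 1 RefSeq window. Each run holds the 250 bases before the RefSeq start in GRCh38.p14, 5′ to 3′, and capitals mark CAGAC on either strand. The RefSeq start need not be the start from which the array counts distance.
FN1 (chr2:215436069-215436318, minus strand): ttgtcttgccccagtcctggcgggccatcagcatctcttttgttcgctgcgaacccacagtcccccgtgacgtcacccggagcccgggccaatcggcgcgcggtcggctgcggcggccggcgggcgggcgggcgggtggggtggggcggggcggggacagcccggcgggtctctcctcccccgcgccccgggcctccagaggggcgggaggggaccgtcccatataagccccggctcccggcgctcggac
CTGF (chr6:131951373-131951622, minus strand): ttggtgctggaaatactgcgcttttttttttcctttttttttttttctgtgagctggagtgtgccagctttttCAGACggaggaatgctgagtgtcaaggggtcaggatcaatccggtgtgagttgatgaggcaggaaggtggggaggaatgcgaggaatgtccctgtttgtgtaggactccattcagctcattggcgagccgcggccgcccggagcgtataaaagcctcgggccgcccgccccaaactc
The CTGF run held 1 match to CAGAC, which begins 177 bases before the start, and the FN1 run held 3 matches to GGCGC and none to CAGAC. Over all 35116 promoter windows of this length, 38.0% held CAGAC on either strand, 44.5% held GGCGC, 17.5% held CACCTG and 0.182% held the palindrome GTCTAGAC. None of the 7 windows of the 5 genes held GTCTAGAC, and both OCLN windows held 1 CACCTG.

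The measurement is the log2 ratio of SMAD3 to mock signal at a probe, centred on the median of all probes of its array, so 0 is the array median. A probe is called measured here when it was well above background in both channels on all 4 arrays of its slide and was flagged as an outlier on none. Before centring, the median log2 ratio of an array was 0.24 to 0.72 over all probes and 0.07 to 0.16 over measured probes. The measured median was the lower on every array. A typical measured probe thus lay below 0, and a value below the array median does not by itself mean depletion. Signals were low. The median spot read 61.3 to 65.3 in the mock channel over a local background of 35 to 37, and 81.7 to 85.5 in the SMAD3 channel over 49 to 51. Both channels were well above background at 38.7% to 51.5% of an array's probes. Of the members' probes 100, or 29.5%, were measured, against 33.9% of all probes. Over all measured probes, the log2 ratios of the 2 basal replicates correlated at r = 0.94 and those of the 2 TGFβ1 replicates at r = 0.95, while replicates of different conditions correlated at 0.31 to 0.34. Single channels were correlated over the measured probes of slide 1. Mock signals correlated at 0.91 (basal) and 0.99 (TGFβ1) within a condition and at 0.61 to 0.63 between conditions. For SMAD3 signals these values were 0.91 and 0.99, and 0.76 to 0.78. The mock signal thus differed between conditions across the array, and the reason was not tested. These correlations run across probes, which share arrays and are not independent.

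Coverage differed between the genes. CDH1 had 17 of 35 probes measured, VIM 14 of 38, OCLN 12 of 26, CTGF 12 of 42 and SNAI1 11 of 24. For TWIST1 and CDH2, 10 of 44 and 10 of 38 were measured, and for SNAI2 and FN1 only 7 of 51 and 7 of 41. Means of genes with few measured probes rest on a small part of the tiled region.

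Averaged over the measured probes of each gene, the ratio of SMAD3 to mock signal fell after TGFβ1 at 5 of the 9 genes. These were SNAI1, OCLN, VIM, FN1 and CTGF, and the ratio rose at 1, TWIST1. SNAI2, CDH1 and CDH2 did not pass the test (limma, Benjamini-Hochberg adjusted p under 0.05 over 16689 genes). These 6 calls stand beside a background of 52.1% of all genes called, 18.6% higher and 33.5% lower. At SNAI1, OCLN and VIM the mock channel changed by 1.16, 1.69 and 2.93 and the SMAD3 channel by −0.22, −0.03 and 1.78. At FN1 and CTGF the mock channel changed by 0.17 each and the SMAD3 channel by −0.72 and −1.06. None of these single-channel changes was called. The median change of the 9 genes was −0.77 on the log2 scale and that of all genes −0.20. In 8 of the 9 genes the replicates of both conditions did not overlap, as in 78.5% of all genes. All 6 calls were lost when background was corrected by the normexp method in place of the scanner's own, where 11.6% of all genes were called.

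**Figure D1:**
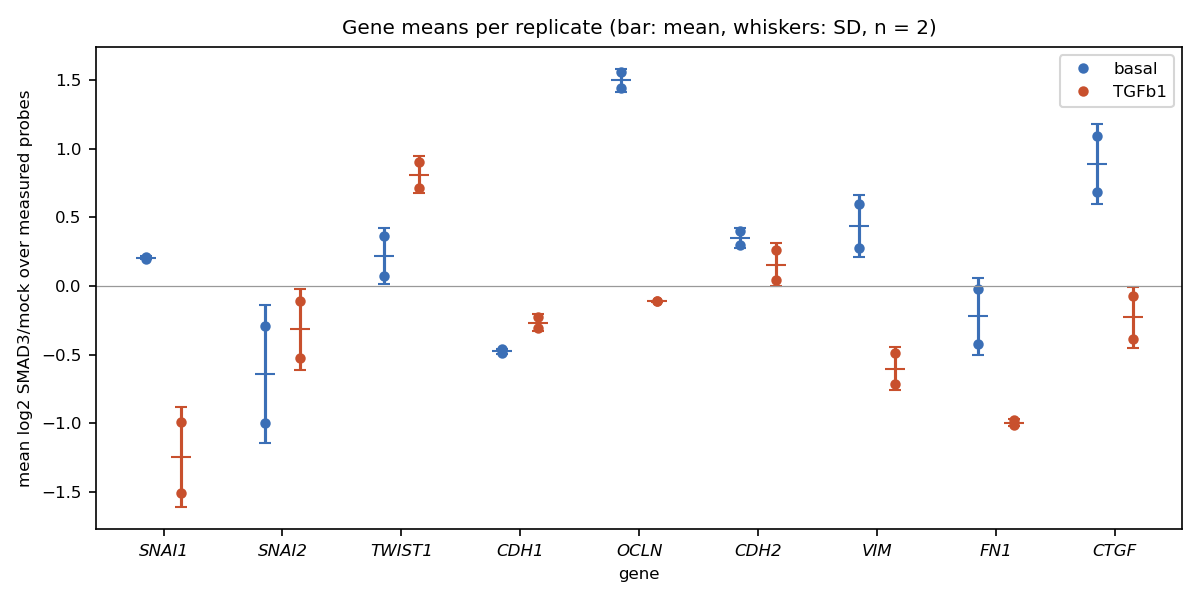
Mean log2 ratio of SMAD3 to mock signal over the measured probes of each gene (vertical axis) in each replicate (points), with the mean and SD of the 2 replicates of a condition. OCLN stood at 1.56 and 1.44 in the basal replicates and at −0.11 in both TGFβ1 replicates, and the conditions overlapped only at SNAI2.

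SNAI1, the zinc-finger repressor of CDH1, lies on chromosome 20. Averaged over its probes, the log2 ratio read 0.21 and 0.20 without TGFβ1, and −1.50 and −0.99 with it. Both basal values were above the array median and both TGFβ1 values below it. The change was −1.45 ± 0.21 (SE, n = 2 per condition, adjusted p = 0.00222), and the TGFβ1 mean of −1.25 ± 0.36 (SD) was below 0 (adjusted p = 0.000487). Of its 11 measured probes, 7 fell and 1 rose, beside 53.9% of all measured probes called, 30.7% lower and 23.2% higher. The 7 that fell were all the measured probes upstream of the start. The change at the probe 100 bases upstream, the nearest to the start, was −1.62 ± 0.21 (adjusted p = 0.00339), from log2 ratios of 0.05 and 0.06 to −1.59 and −1.53. The lowest p was found 3669 bases upstream, where the ratio went from −0.06 and 0.10 to −4.10 and −3.44, a change of −3.79 ± 0.31 (adjusted p = 0.000847). Downstream of the start the pattern was different. The probe at 470 bases rose by 1.34 ± 0.25 (adjusted p = 0.0107), and the probe with the highest mean ratio, at 256 bases, read 0.91, 0.47, 1.09 and 1.46 in basal 1, basal 2, TGFβ1 1 and TGFβ1 2, with no call (adjusted p = 0.141).

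SNAI2, the related Snail-family repressor on chromosome 8, had gene means of −0.99 and −0.29 in the basal and −0.11 and −0.53 in the TGFβ1 replicates. These ranges overlapped, and the change of 0.33 ± 0.28 was not called (adjusted p = 0.364). Close to the start the ratio was above the array median in all 4 replicates. The probe 9 bases upstream, at once the nearest and the one with the highest mean ratio, read 1.84, 1.47, 2.01 and 0.86, a difference of −0.22 ± 0.45 (adjusted p = 0.707). The lowest ratios were those of 2 probes at 1548 and 1650 bases downstream, which read −6.02 and −6.92 in basal replicate 1, −2.95 and −3.92 in basal replicate 2, −3.11 and −1.11 in TGFβ1 replicate 1, and −3.48 and −1.42 in TGFβ1 replicate 2. With probes from 2000 bases upstream to 800 downstream only, the basal mean was 1.24 in place of −0.64. The largest call by p was a fall 2509 bases downstream, from 1.68 and 1.63 to −1.55 and −1.89 (−3.38 ± 0.24, adjusted p = 0.000613).

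TWIST1, a basic helix-loop-helix factor on chromosome 7, was the only member called higher. Its means were 0.36 and 0.07 in the basal and 0.72 and 0.90 in the TGFβ1 replicates, all above the array median. The rise was 0.59 ± 0.18 (adjusted p = 0.033). It was no longer called without basal replicate 2 (0.45, adjusted p = 0.243), without TGFβ1 replicate 1 (0.69, adjusted p = 0.0700) or without TGFβ1 replicate 2 (0.50, adjusted p = 0.126), and the median over its probes changed by 0.096. Nor was it called with a separate fit per slide (adjusted p = 0.100), with probes from 2000 bases upstream to 800 downstream (0.64, adjusted p = 0.0534) or without the filter on dim probes (0.22, adjusted p = 0.0816). The rise of the mean over the 10 measured probes depended on a single probe 1491 bases upstream. This probe rose by 7.25 ± 0.33 (adjusted p = 0.000296), from −2.26 and −2.59 to 4.47 and 5.18. There the processed SMAD3 signal was 679 and 2987 in the basal and 8780 and 9576 in the TGFβ1 replicates, and the mock signal went the other way, from 2752 and 12776 to 299 and 170. The probes at 511 and 392 bases upstream both fell, by −2.52 ± 0.21 and −3.97 ± 0.62. Downstream, the probe at 733 bases had the gene's highest mean ratio and rose from 3.41 and 2.59 to 4.49 and 4.45 (1.47 ± 0.34, adjusted p = 0.0205). At the nearest probe, 124 bases downstream, the ratio was 0.16 and 0.14, then 0.45 and 0.44 (adjusted p = 0.291).

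**Figure D2:**
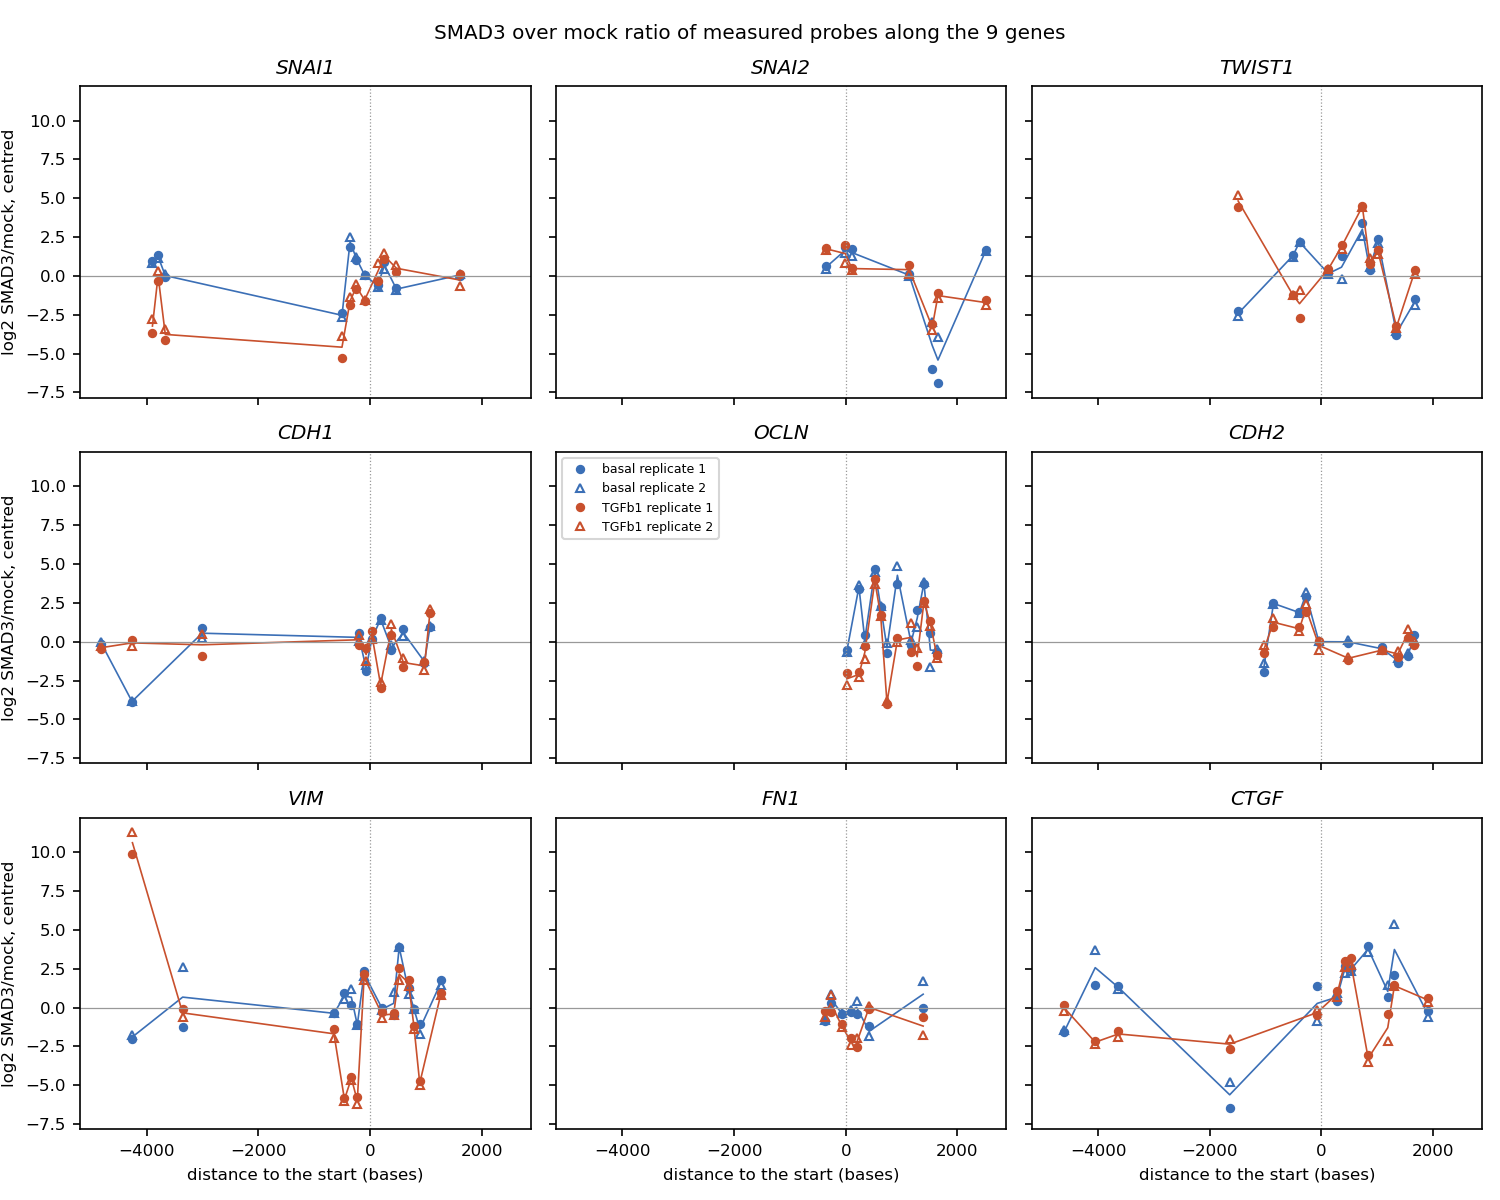
Centred log2 ratio of SMAD3 to mock signal at each measured probe (vertical axis) against its distance to the start in bases (horizontal axis, negative upstream), per replicate, with a line through the mean of each condition. Probes more than 3000 bases downstream are not drawn. The VIM probe 4257 bases upstream reached 9.91 and 11.32 after TGFβ1, and the 3 VIM probes from 461 to 231 bases upstream lay between −4.46 and −6.23.

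CDH1, which encodes the adherens junction protein E-cadherin and lies on chromosome 16, was below the array median in every replicate. Its means were −0.46 and −0.49 in the basal and −0.31 and −0.22 in the TGFβ1 replicates. The groups did not overlap, but the difference of 0.21 ± 0.15 was not called (adjusted p = 0.288). The mean combined unlike parts. Within 250 bases of the start the mean of 4 probes fell by −0.82 ± 0.19 (adjusted p = 0.0167). Beyond 2000 bases upstream the mean of 3 probes rose by 0.90 ± 0.23 (adjusted p = 0.0245). Each of these means was set by 1 probe. Upstream, the probe at 4265 bases rose by 3.77, while those at 4821 and 3010 bases changed by −0.33 and −0.75. Within 250 bases it was the probe at 186 bases, described below. Beyond 800 bases downstream the mean of 8 probes rose by 0.61 ± 0.19 (adjusted p = 0.0438). The array's annotation also ties 14 probes at 101430 to 108191 bases downstream to CDH1, and the measured ones enter this bin and the gene mean. The probe at 104929 bases had the largest rise of the gene, from −5.10 and −4.57 to 0.41 and −0.04 (5.02 ± 0.31, adjusted p = 0.000467). With probes from 2000 bases upstream to 800 downstream only, the change was −0.67 and was called (adjusted p = 0.0171), while centring each array on its measured probes gave 0.36, called higher (adjusted p = 0.0349). The only probe called within 250 bases of the start was that 186 bases downstream. It went from 1.52 and 1.38 to −2.98 and −2.58 (−4.23 ± 0.25, adjusted p = 0.000432), whereas the nearest probe, 31 bases downstream, read 0.16, 0.26, 0.70 and 0.15 (adjusted p = 0.559). The highest mean ratio was found 1072 bases downstream, where 0.96 and 1.00 rose to 1.84 and 2.10 (0.99 ± 0.23, adjusted p = 0.02).

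OCLN encodes occludin, a membrane protein of tight junctions, and lies on chromosome 5. It had the largest basal enrichment of the 9 genes. The replicates read 1.56 and 1.44 before and −0.11 and −0.11 after TGFβ1. Enrichment in the basal cells was thus above the array median (mean 1.497 ± 0.083 SD, adjusted p = 0.000103), and after TGFβ1 the mean of −0.11 was not called (adjusted p = 0.39). The change of −1.61 ± 0.15 (adjusted p = 0.000494) was the largest fall of the 9. All 12 measured probes lay downstream of the start, 6 fell and none was called higher. The probe at 235 bases fell from 3.39 and 3.66 to −1.94 and −2.28 (−5.63 ± 0.25, adjusted p = 0.000291). The probe nearest the start, 19 bases downstream, fell from −0.52 and −0.66 to −2.02 and −2.76 (adjusted p = 0.009). Enrichment remained high at 520 bases downstream. This probe had the highest mean ratio of the gene, 4.65, 4.51, 4.06 and 3.74, and the highest SMAD3 signals of all measured member probes, 456535 and 858651 in the basal and 772134 and 745822 in the TGFβ1 replicates. Its difference of −0.68 ± 0.24 was not called (adjusted p = 0.0675).

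CDH2, which encodes N-cadherin, lies on chromosome 18 and was above the array median in every replicate. The gene means were 0.30 and 0.40, then 0.05 and 0.27, and the difference of −0.20 ± 0.17 was not called (adjusted p = 0.357). With probes from 2000 bases upstream to 800 downstream only, it was −0.55 and was called (adjusted p = 0.0393). A block of enriched probes upstream of the start was called above the array median in both conditions. The probes at 858, 394 and 277 bases upstream had basal log2 ratios between 1.85 and 3.23 and TGFβ1 log2 ratios between 0.70 and 2.40. The first 2 of them fell, by −1.21 ± 0.29 (adjusted p = 0.022) and −1.04 ± 0.23 (adjusted p = 0.017), and the one at 277 bases, with the highest mean ratio of the gene, did not pass the test (−0.90 ± 0.29, adjusted p = 0.0538). At the nearest probe, 45 bases upstream, the replicates read −0.01, 0.02, 0.08 and −0.56 (adjusted p = 0.526). The lowest p belonged to a rise 1548 bases downstream, from −0.93 and −0.74 to 0.27 and 0.83 (1.39 ± 0.29, adjusted p = 0.0142).

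VIM encodes vimentin, the intermediate filament protein of mesenchymal cells, and lies on chromosome 10. Its mean was called above the array median in basal cells (0.28 and 0.59, adjusted p = 0.0253) and below it after TGFβ1 (−0.49 and −0.71, adjusted p = 0.00651). The change was −1.04 ± 0.19 (adjusted p = 0.005). Without the filter on dim probes it was 0.16 and was not called (adjusted p = 0.254), and the median over its probes changed by −0.80 (adjusted p = 0.0895). The fall was concentrated upstream of the start. At 461, 337 and 231 bases upstream the changes were −6.65 ± 0.26, −5.22 ± 0.40 and −4.88 ± 0.26 (adjusted p between 0.000269 and 0.000738). These probes span chr10:17310818-17311095 in the array's own coordinates, whose build the array files do not name (the study's methods name hg17). The next probe toward the start, 109 bases upstream and the nearest to it, read 2.33, 2.04, 2.13 and 1.75 and did not change detectably (−0.24 ± 0.26, adjusted p = 0.484). In the opposite direction, the probe 4257 bases upstream rose from −2.04 and −1.75 to 9.91 and 11.32, a change of 12.51 ± 0.52 (adjusted p = 0.000274) and the largest of any measured member probe. The change of the gene mean includes this rise.

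The signals of both channels showed how these VIM ratios were composed. At 461 bases upstream the mock signal read 78.7 and 110 before TGFβ1 and 162545 and 157683 after it. The SMAD3 signal at the same probe went from 178 and 223 to 3787 and 3796. At 231 bases upstream the mock signal went from 2247 and 2777 to 169861 and 193136, and the SMAD3 signal from 1249 and 1751 to 4107 and 3995. Both channels were thus higher after TGFβ1 at these probes, the mock channel by far more. The probe 4257 bases upstream differed. There the SMAD3 signal went from 141 and 458 to 343862 and 305353, and the mock signal from 491 and 1098 to 270 and 77.0. Signals are those of single arrays and were not scaled between arrays.

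FN1 encodes fibronectin, a matrix glycoprotein, and lies on chromosome 2. The gene means were −0.42 and −0.02 in the basal and −0.98 and −1.01 in the TGFβ1 replicates, all below the array median. The fall was −0.77 ± 0.19 (adjusted p = 0.0154). It was no longer called without basal replicate 2 (−0.58, adjusted p = 0.124), TGFβ1 replicate 1 (−0.79, adjusted p = 0.0767) or TGFβ1 replicate 2 (−0.76, adjusted p = 0.0837), and the direction turned without the filter on dim probes (0.41, adjusted p = 0.0109). Loess (−0.64, adjusted p = 0.0697), centring on measured probes (−0.66, adjusted p = 0.0597) and the median over probes (−0.69, adjusted p = 0.105) also ended the call. All 3 probes within 250 bases of the start fell. The nearest, 73 bases upstream and within the distance range of the run shown above, went from −0.39 and −0.38 to −1.09 and −1.28 (−0.80 ± 0.22, adjusted p = 0.0337). The probe 88 bases downstream went from −0.28 and −0.13 to −1.96 and −2.39 (−1.97 ± 0.26, adjusted p = 0.00339). At the probe with the highest mean ratio, 269 bases upstream, the replicates read 0.29, 0.86, −0.28 and 0.84, with overlapping groups (adjusted p = 0.617). None of the 7 measured probes was called above the array median in either condition.

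CTGF encodes a matricellular growth factor, lies on chromosome 6, and is a well-known target of TGFβ1 signaling. Its means were 0.68 and 1.09 in the basal and −0.07 and −0.39 in the TGFβ1 replicates. The basal mean of 0.89 ± 0.29 (SD) was above the array median (adjusted p = 0.00243) and the change was −1.12 ± 0.21 (adjusted p = 0.00599). This direction turned with the region that was averaged, largely through 1 probe 1642 bases upstream. That probe rose by 3.26 ± 0.62 (adjusted p = 0.0112), from −6.46 and −4.78 to −2.68 and −2.04. It was called below the array median in both conditions. No other measured probe from 2000 bases upstream to 800 downstream was called for the change. With probes from 2000 bases upstream to 800 downstream the change was 0.75 (adjusted p = 0.0104), and without TGFβ1 replicate 2 the value of −0.96 was not called (adjusted p = 0.0554), nor was −0.084 without the filter on dim probes (adjusted p = 0.532). Within the first 800 bases downstream, 3 neighbouring probes at 281, 414 and 522 bases were called above the array median in both conditions. The one at 522 bases, with the highest mean ratio, read 2.48, 2.38, 3.19 and 2.73, and its difference of 0.53 ± 0.26 was not called (adjusted p = 0.153). Just beyond, at 838 bases, the ratio fell from 3.95 and 3.58 to −3.05 and −3.49 (−7.04 ± 0.28, adjusted p = 0.000272), the largest fall of any measured member probe. Its SMAD3 signal went from 15797 and 30383 to 431 and 327 and its mock signal from 867 and 1812 to 2704 and 2379. At the nearest probe, 74 bases upstream, the basal replicates themselves disagreed (1.38 and −0.85), and the TGFβ1 replicates read −0.51 and −0.14 (adjusted p = 0.554).

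Divided into 5 bins of distance to the start, the 9 genes gave 37 gene-bin units with a measured probe, of which 8 rose, 15 fell and 14 did not pass the test. Over all 53628 units, 52.7% were called, 21.5% higher and 31.1% lower. In 5 of the 9 genes, different bins were called in opposite directions, and some of these bins rested on 1 measured probe. The share of all genes with such calls was not counted, so this count cannot be read as a trait of the members. Within 250 bases of the start no member rose and 5 of 9 fell, SNAI1, CDH1, OCLN, VIM and FN1, beside 30.7% of all units in that bin called lower and 20.9% called higher. The member median in this bin was −0.82 and that of all genes −0.19. OCLN was the only gene with all its tested bins called in 1 direction. It fell by −3.72 ± 0.25 within 250 bases (adjusted p = 0.000316), by −1.40 ± 0.20 from there to 800 bases downstream (adjusted p = 0.00346) and by −1.04 ± 0.23 beyond that (adjusted p = 0.0149). SNAI1 fell in 3 bins, by −3.06 ± 0.30 beyond 2000 bases upstream, −2.93 ± 0.35 from 2000 to 250 bases upstream and −0.85 ± 0.25 around the start, and rose by 0.97 ± 0.24 from 250 to 800 bases downstream.

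**Figure D3:**
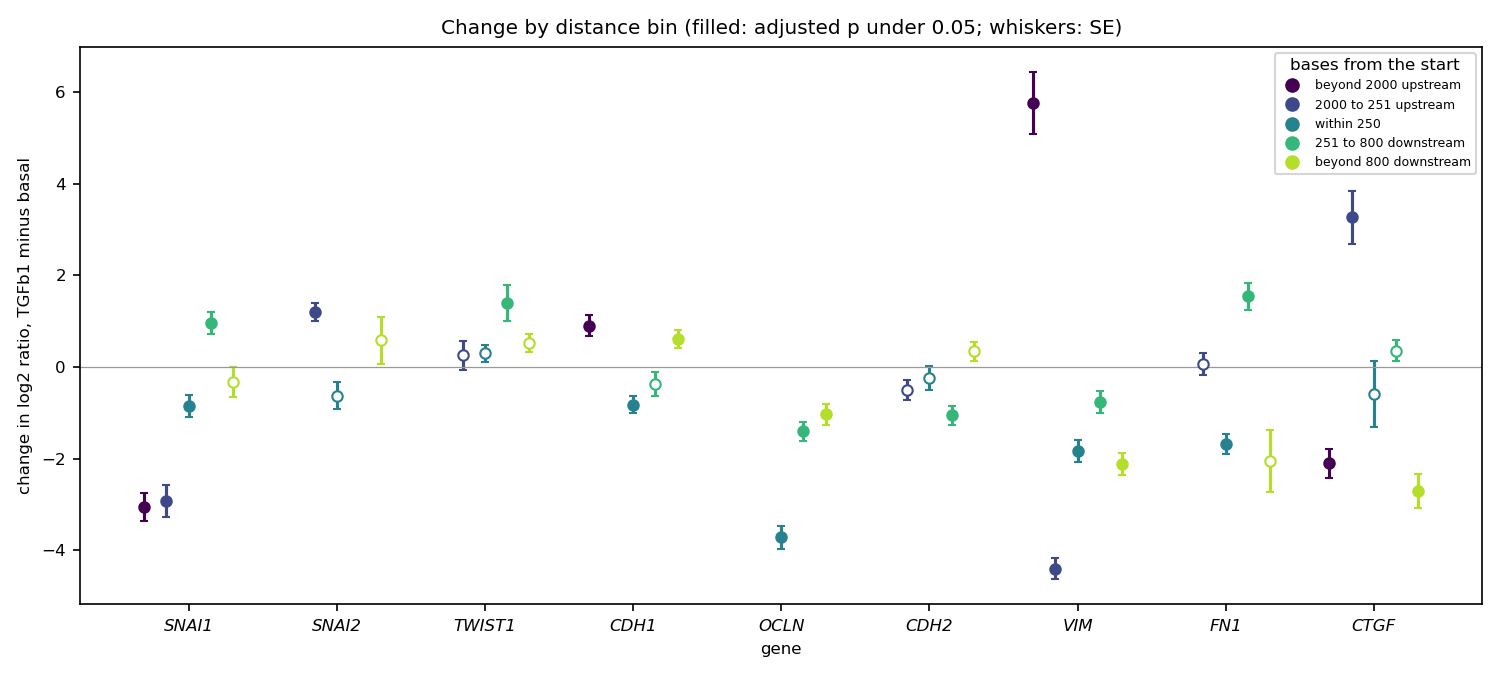
Change in log2 ratio, TGFβ1 minus basal (vertical axis), of each gene in 5 bins of distance to the start, with the SE. Filled points passed the test, and bins without a measured probe are not drawn. VIM rose by 5.75 beyond 2000 bases upstream and fell by −4.40 from 2000 to 250 bases upstream.

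Of the 100 measured member probes, 18 rose and 38 fell after TGFβ1, beside 23.2% and 30.7% of all measured probes. In basal cells 37 were called above the array median and 23 below it, beside 67.2% of all measured probes called, 26.1% above and 41.1% below. After TGFβ1 the member counts were 27 above and 37 below, beside 69.9% of all called, 24.4% above and 45.5% below. A probe was called above the array median in both conditions 20 times (14.2% of all measured probes), at CTGF, OCLN and CDH2 3 times each and at VIM 4 times. Calls on opposite sides of the median in basal and TGFβ1 cells were made at 15 member probes (10.9% of all).

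At gene level, 4 members were called above the array median in basal cells, OCLN, CTGF, VIM and CDH2, and 2 below it, CDH1 and SNAI2, beside 67.8% of all genes called, 22.5% above and 45.2% below. After TGFβ1 only TWIST1 was called above it (0.81 ± 0.13 SD, adjusted p = 0.00153), and SNAI1, VIM and FN1 below it, beside 72.7% of all genes called, 17.7% above and 55% below. Genes called above the median in one condition and not the other were compared through the change itself, given with each gene.

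A ratio can move through either channel, so each was also fitted alone, as the median-centred log2 signal averaged over a gene's measured probes. No member was called in the SMAD3 channel or in the mock channel by limma, where 5.11% of all genes (2.13% higher, 2.98% lower) and 5.43% (2.34% higher, 3.09% lower) were called, and 2 of the 9 had an unadjusted p under 0.05 in each channel. At SNAI1 the mock level was 3.04 ± 0.09 (SD) in basal and 4.20 ± 0.22 in TGFβ1 cells (change 1.16 ± 0.29, adjusted p = 0.109), and the SMAD3 level 3.87 ± 0.17 and 3.65 ± 0.76 (change −0.22 ± 0.59, adjusted p = 0.94). VIM was higher in both TGFβ1 channels, by 2.93 ± 0.61 in the mock channel (adjusted p = 0.0791) and by 1.78 ± 0.59 in the SMAD3 channel (adjusted p = 0.05004), neither past the threshold. At OCLN the mock level differed by 1.69 ± 0.68 (adjusted p = 0.239) and the SMAD3 level by −0.03 ± 0.59 (adjusted p = 0.992). The SE that limma gave in the SMAD3 channel was the same 0.59 at all 9 members, so it does not describe the spread of a single gene. For the 6 members on slide 1, the 2 basal replicates differed far more in single channels (SD 0.57 to 1.44) than in their ratio (SD 0.08 to 0.50), which limits what a single channel can show.

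**Figure D4:**
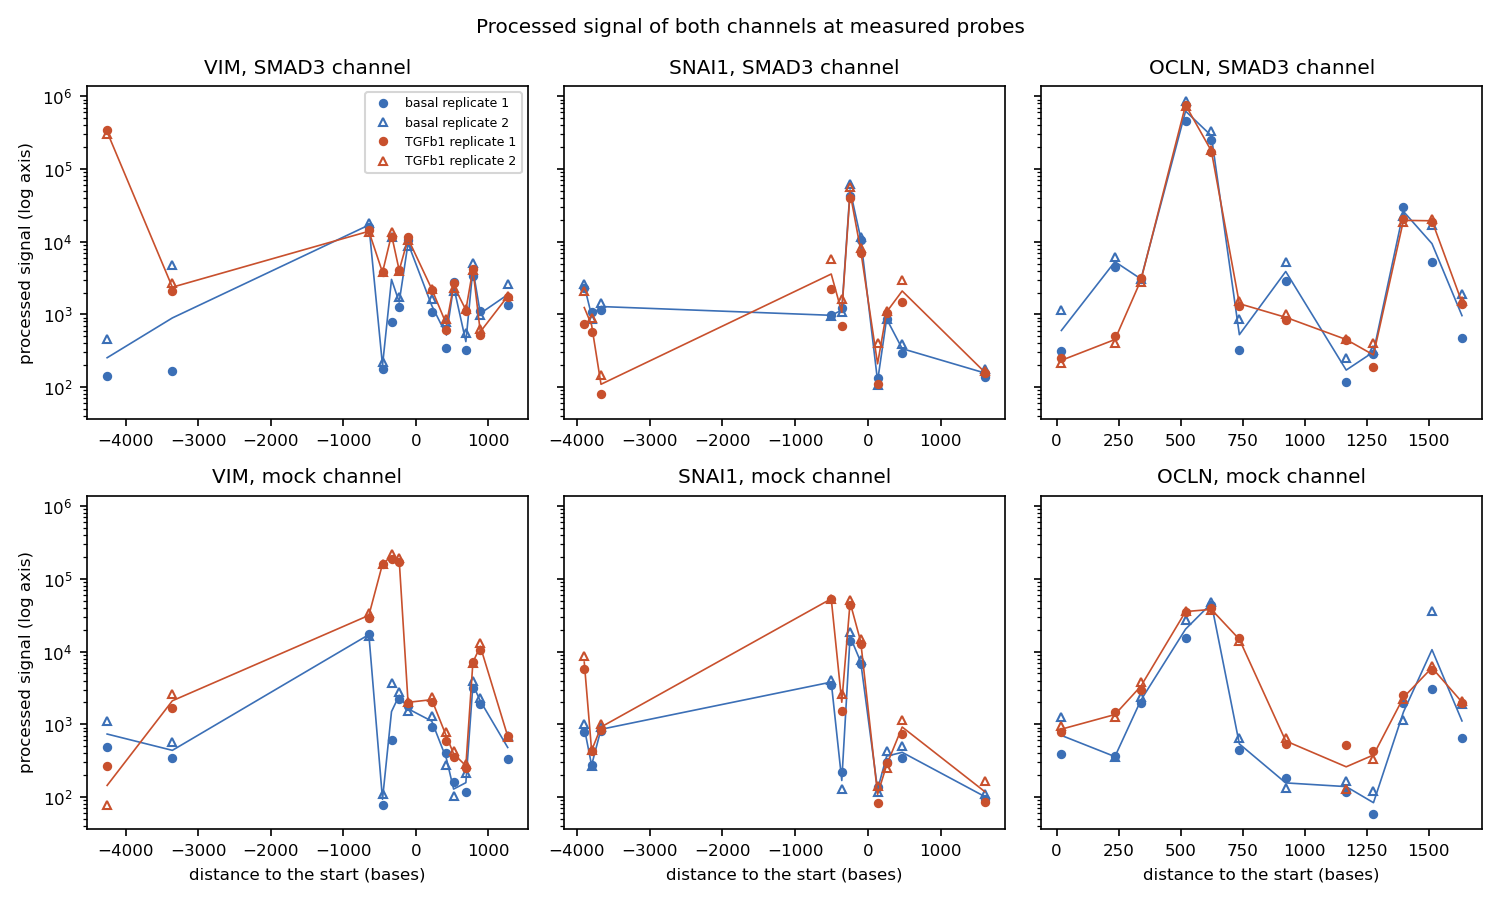
Processed signal (vertical log axis, arbitrary units) of the SMAD3 channel (top) and mock channel (bottom) at the measured probes of VIM, SNAI1 and OCLN against distance to the start in bases, per replicate, with lines through the geometric mean of each condition. At the VIM probe 461 bases upstream the TGFβ1 mock signals of 162545 and 157683 stand far above the basal 78.7 and 110.

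Other genes of the transition were examined as 3 lists. The 6 genes given with values are those with the largest rise and the largest fall among the called genes of each list. Of 16 transcription factors 14 could be tested, 3 rose and 2 fell, with a median change of −0.07. The largest rise was that of TCF4, an E-protein, from −1.19 and −1.24 to −0.42 and 0.44 (1.23 ± 0.29, adjusted p = 0.0138), and the largest fall that of KLF8, a Krüppel-like factor, from −0.17 and −0.02 to −1.34 and −1.16 (−1.16 ± 0.16, adjusted p = 0.00211). Of 23 epithelial genes 22 were tested, 3 rose and 8 fell, with a median of −0.37. TJP1, the tight junction scaffold ZO-1, rose from −0.42 and −0.30 to 2.22 and 2.03 (2.48 ± 0.16, adjusted p = 0.000151), and PARD6A, a polarity protein, fell from 0.21 and 0.16 to −1.79 and −1.84 (−2.002 ± 0.151, adjusted p = 0.000228). Of 24 genes listed as mesenchymal 23 were tested, 5 rose and 9 fell, with a median of −0.29. The 5 that rose include ITGB6, an integrin subunit of epithelial cells, so the list is not purely mesenchymal. The extremes of that list each rested on 1 measured probe, POSTN at 3.37 ± 0.18 (adjusted p = 8.75e-05) and DCN at −6.11 ± 0.17 (adjusted p = 2.36e-05). Both directions turned without the filter on dim probes, to −0.029 for POSTN (adjusted p = 0.819) and 0.37 for DCN (adjusted p = 0.0157), and that of POSTN also with at least 1 channel above background (−0.33). In all, 30 of 59 tested genes were called, beside 52.1% of all genes, and their median of −0.28 stood beside −0.20 for all genes.

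**Figure D5:**
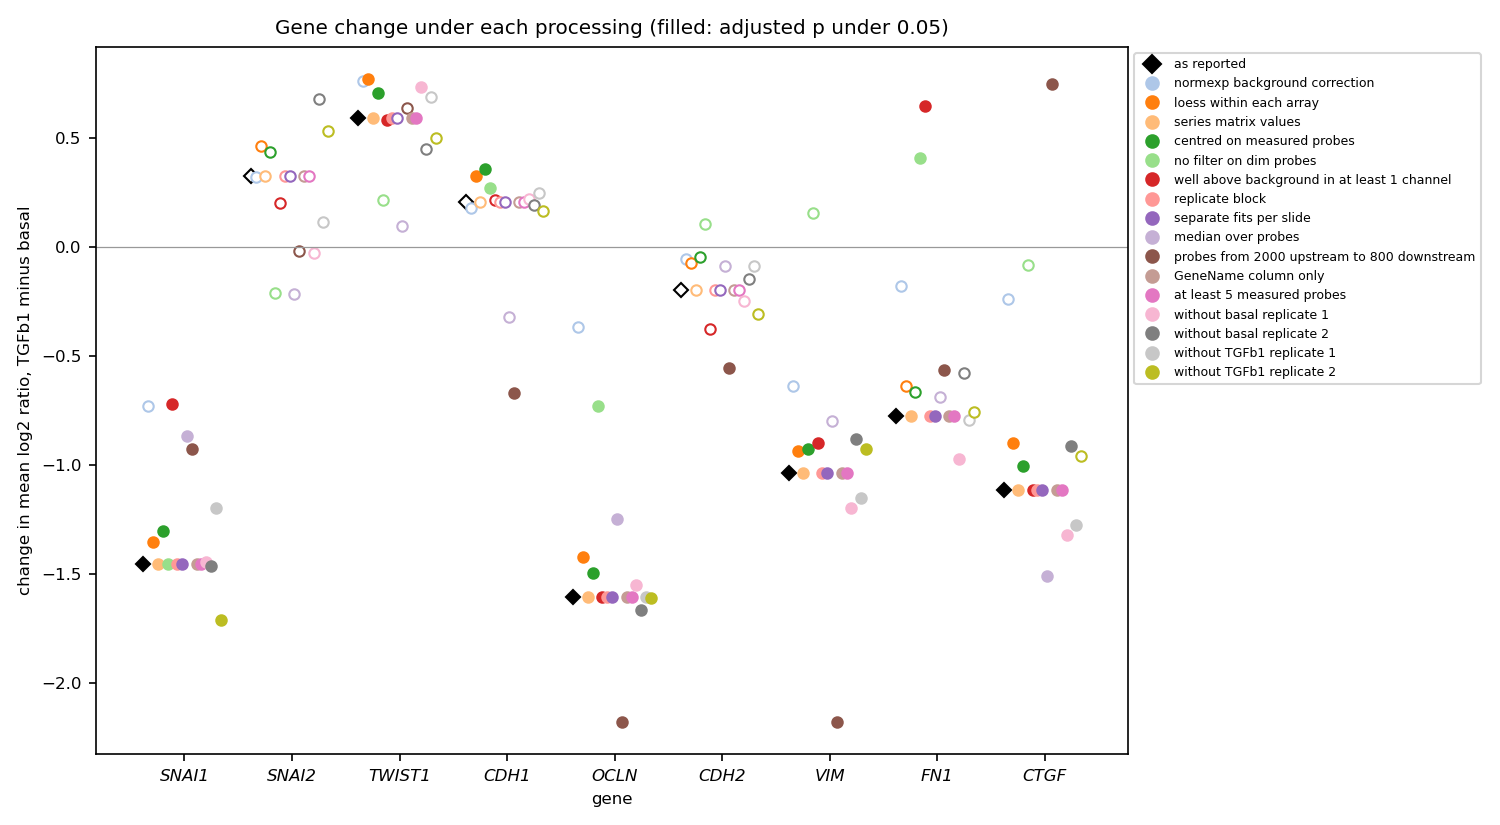
Change in mean log2 ratio of each gene, TGFβ1 minus basal (vertical axis), as reported and under 16 other ways of processing. Filled points passed the test. SNAI1, TWIST1 and OCLN kept their sign throughout, CTGF ranged from −1.51 to 0.75, and none of the 9 was called with normexp background correction.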

How the data were processed

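Processed files of 8 two-colour Agilent promoter arrays were used. Per the file headers, the deposited intensities are processed signals of Agilent Feature Extraction 9.5.1.1, background-subtracted and dye-normalized. The log2 values deposited in the series matrix are log2 ratios of red to green and matched these to within 3.13e-06. The study's methods name another array format and scanner. Fragments were 200 to 700 bp, so neighbouring probes share DNA.

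Log2 ratios of the processed signals were centred on each array's median. Values were fitted with limma 3.58.1 in R 4.3.3 (lmFit, eBayes), TGFβ1 minus basal and each condition against 0, over all genes, gene-bin units or measured probes of both slides, and Benjamini-Hochberg adjusted at 0.05. The number of arrays limits the precision. The fitting code was run on simulated gene means, drawn independently with the same SD for all genes. Such a run checks the code and cannot show the error rate in these data. The members and lists were chosen with earlier results of these data known. Named probes of a member are the one with the lowest adjusted p, the one nearest the start and the one with the highest mean ratio. Alternatives were normexp background correction (offset 50), loess, the deposited matrix, centring on measured probes, other filters on dim probes, the replicate block, fits per slide, probe medians, a window of 2000 bases upstream to 800 downstream, gene names only and leaving out each replicate. A minimum of 5 measured probes per gene was added after seeing the data. Replicates are labelled biological, and both conditions were run on each slide design, the only batch used. The pairing of replicate numbers is given with the processing alternatives.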

Additional observations from a re-analysis of the deposited data

Results flagged for a closer look

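Results named in the report were examined for effects that differed between conditions, here a log2 ratio called above the array median in one condition and below it in the other, with the limma test of the change itself past the threshold. At gene level this held for VIM, with a change of −1.04. Among the named probes it held for 7. Those that went from above to below the median were the probe of CDH1 186 bases downstream (−4.23), that of CTGF 838 bases downstream (−7.04), that of OCLN 235 bases downstream (−5.63), that of SNAI2 2509 bases downstream (−3.38) and that of VIM 461 bases upstream (−6.65). The probe of TWIST1 1491 bases upstream (7.25) and that of VIM 4257 bases upstream (12.51) went from below to above. With normexp background correction the changes at CDH1 (−1.36, adjusted p = 0.219), CTGF (−3.38, adjusted p = 0.0873), OCLN (−1.69, adjusted p = 0.247) and SNAI2 (−0.43, adjusted p = 0.330) were no longer called. Named probes were chosen partly by the lowest adjusted p of the change, so their count cannot be set against a share of all probes. Calls on opposite sides of the median were made at 15 of the 100 measured member probes, beside 10.9% of all measured probes. The share of all genes with this pattern was not computed. With 2 replicates per condition no replicate could be tested as an outlier.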

How the results depend on the processing

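With normexp background correction the calls fell from 6 to 0 of the 9 genes for the change, from 6 to 1 for basal enrichment, from 56 to 10, 60 to 9 and 64 to 23 probes for the change, basal and TGFβ1 enrichment, from 23 to 7 bins and from 30 to 7 list genes. Of all genes, measured probes and bins, 11.6%, 11.3% and 11.7% were then called for the change. Normexp reversed the change at the probes CDH1 31 (−0.020), CTGF −74 (0.055), FN1 −269 (0.099) and VIM −109 (0.58), at OCLN beyond 800 bases downstream (0.13) and VIM 250 to 800 downstream (0.047), and in the SMAD3 channel of OCLN (0.35) and SNAI1 (0.068). The named probes TWIST1 −1491 (3.57, adjusted p = 0.0437), TWIST1 733 (2.88, adjusted p = 0.0373), VIM −461 (−4.83, adjusted p = 0.00709) and VIM −4257 (7.79, adjusted p = 0.00709) were still called. The cause was not tested. Medians over probes left 3 gene calls and 18 list calls, beside 34.3% of all genes called. They reversed CDH1 (−0.32) and SNAI2 (−0.21) and the basal means of CDH1 (0.086), CDH2 (−0.0039) and SNAI2 (0.55). Without the filter on dim probes CDH2 (0.10), DCN (0.37), FN1 (0.41), POSTN (−0.029), SNAI2 (−0.21) and VIM (0.16) reversed, as did the basal means of CDH2 (−0.11) and CTGF (−0.062), the TGFβ1 mean of VIM (0.27) and the SMAD3 channel of OCLN (0.091). With at least 1 channel above background FN1 (0.65) and POSTN (−0.33) reversed. From 2000 upstream to 800 downstream CDH1 (−0.67), CTGF (0.75) and SNAI2 (−0.015) reversed, as did the basal means of CDH1 (0.067) and SNAI2 (1.24) and the SMAD3 channel of SNAI1 (0.48), and 9 TGFβ1 means were called in place of 4. Loess reversed the basal mean of CDH1 (0.15) and the SMAD3 channel of OCLN (0.089), and centring on measured probes the SMAD3 channel of SNAI1 (0.26). That centring moved the median of all genes from −0.20 to −0.067.

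Leaving out 1 replicate gave 3 to 6 gene changes, 3 to 5 basal and 3 to 4 TGFβ1 enrichments, 15 to 19 bins, 43 to 53 probe changes, 23 to 25 list calls and 0 to 6 mock-channel calls. Ranges that crossed 0 were those of SNAI2 (−0.028 to 0.68), the probes CDH1 31 (−0.065 to 0.49), CDH2 −45 (−0.56 to 0.074), CTGF −74 (−1.71 to 0.53), FN1 −269 (−0.85 to 0.26) and SNAI2 −9 (−0.79 to 0.36), and the SMAD3 channel of OCLN (−0.86 to 0.79) and SNAI1 (−0.75 to 0.31). From 0 members, the SMAD3 channel rose to 3 calls with centring on measured probes, to 2 with medians over probes and to 1 with loess, gene names only, the replicate block and at least 1 channel above background. The mock channel rose from 0 to 4 with that centring, to 3 with fits per slide and to 1 with loess, no filter or the window. Of all genes, 25.4% were called in the SMAD3 channel and 48.4% in the mock channel with that centring. The other settings named for the SMAD3 channel called 4.89% to 6.75% of all genes in it. In the mock channel fits per slide called 27.6% of all genes, loess 12.9%, no filter 10.4% and the window 9.17%. Centring also moved the share of rises among all called genes from 41.6% to 56.8% in the SMAD3 channel and from 43.1% to 54.2% in the mock channel. Deviations of same-numbered replicates correlated at 0.15 over genes and 0.052 over probes, over only 2 pairs, so the numbers were not taken as pairs. With the replicate block 6 members were called for the change, beside 56.9% of all genes. Of 1021 comparisons over 76 named values, 820 kept direction and side of the threshold, 133 lost a call, 26 gained one and 42 reversed. This total does not measure robustness, as some settings could hardly differ. The deposited matrix held the same values and kept 70. Gene names only (30 kept) and at least 5 measured probes (22 kept) used the same member probes. The replicate block (71 kept) and fits per slide (69 kept) left each change itself as it was. Normexp kept 30, weakened 38 and reversed 8.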

Other observations

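Adjacent measured probes of a gene no more than 200 bases apart formed 46 pairs among the 9 genes, with a median gap of 121 bases. In 16 of the 46 pairs both probes were called for the change, beside 21667 of 70135 pairs over all genes. Of the 16, 14 went in the same direction and 2 in opposite directions, beside 36.5% opposite over all such pairs of all genes. Many pairs share a probe with the next pair, so they are not separate observations. The change of the 2 probes of a pair differed by a median of 1.25 on the log2 scale among the members and 1.52 among all genes. Since fragments were longer than these gaps, the probes of a pair could have detected the same fragments.

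Probes outside the filter on dim signals were compared by detection. Of 338 member probes without an outlier flag, 7 rose above background in the SMAD3 channel in both TGFβ1 replicates and neither basal replicate, and 11 showed the opposite, shares of 2.07% and 3.25% beside 2.25% and 3.48% of all probes. In the mock channel the counts were 7 and 16, or 2.07% and 4.73%, beside 2.72% and 3.65%. CDH1 and VIM contributed most in the SMAD3 channel, CDH1 with 4 probes lost and 1 gained and VIM with 3 gained and 1 lost. FN1 and CTGF each lost 4 probes in the mock channel. These probes have only bounds in one condition, so no fold is given.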
